A study of Mus musculus with 47 samples.

Results

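The genes described here are 10 genes that p53 switches on, or that act beside it, in programmed cell death: Bbc3, Bax, Pmaip1, Fas, Tnfrsf10b, Aen, Phlda3, Perp, Pawr and Ei24. They were taken from the array through probe sets, the groups of oligonucleotides that report 1 transcript, with exactly 1 gene symbol in the platform annotation, and each gene was read from the probe set that was brightest on average. Of the 10 genes, 9 had such a probe set, out of 12393 genes on the array, and 7 were bright enough to be tested, out of 8675 tested genes. Bax was not analysed here. Perp and Pmaip1 were not tested, because their mean log2 signals of 2.67 and 2.39 lay under the low-signal limit of 4.35. The tested gene nearest above that limit, Tnfrsf10b, had a mean of 4.80.

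The study measured RNA of JB6 mouse cells, labelled as progenitor cells, after low and moderate doses of X-rays. One line carried an shRNA, a hairpin RNA that lowers its target transcript, against AnxA2, the membrane-binding protein annexin A2. The other line carried the empty vector. Both lines had been made with a retrovirus and selected with puromycin, and both grew in the same serum-containing medium; the labels do not say whether a line is a clone or a pool. Cells of each line were left untreated (sham), or received 10 or 100 cGy, and RNA was taken after 2, 6 or 24 h, with untreated cells only at 2 and 24 h. This gave 16 groups of 3 arrays, except vector cells 24 h after 10 cGy with 2 arrays (replicates 1 and 3), so that 23 arrays were of vector and 24 of shRNA cells. What the replicates share is not in the labels, so the tests below measure the spread between these samples, which may be technical.

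The transcription factor p53 is kept low by Mdm2 in unstressed cells and accumulates after DNA damage, when it raises genes of cell cycle arrest, repair and cell death. Its death genes act at several points. Bbc3 (Puma) and Pmaip1 (Noxa) free the pore former Bax at the mitochondrion, Fas and Tnfrsf10b are death receptors at the cell surface, and others such as the nuclease Aen and the AKT antagonist Phlda3 act further downstream or on survival signals. Pawr (Par-4) is a pro-apoptotic protein that is usually discussed beside p53 rather than as one of its classical targets.

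The knockdown was visible but partial at the probe set of Anxa2, where vector arrays read 12.25 to 12.66 and shRNA arrays 10.58 to 11.23. In untreated cells the shRNA level was 34.2% of the vector level, while the labels state a near-complete loss. The lines also differed across much of the genome, and 48.2% of tested genes were called different between untreated lines. Of 12 keratinocyte markers, 5 in vector and 6 in shRNA cells averaged above the low-signal limit. In both lines Itga6 (8.58 in vector and 8.43 in shRNA cells) and Pkp1 (5.14 and 5.76) lay above it. So did Krt8 (5.03 and 5.05), Itgb4 (4.68 and 4.76) and Krt5 (4.56 and 4.69), nearer to the limit. The epithelial markers Cdh1 (2.36 and 2.37), Epcam (3.51 and 3.57) and Trp63 (3.33 and 3.31) lay below it in both lines, as did Krt15, Krt18 and Dsp. The keratin Krt14 read 3.84 in vector and 6.57 in shRNA cells. Of 11 mesenchymal markers, 10 and 9 averaged above it, with Vim at 12.99 in vector and 13.30 in shRNA cells, and the cadherin Cdh11 read 9.76 in vector and 3.32 in shRNA cells. The mesenchymal marker Thy1 lay below it in both lines (3.59 and 3.67). Of the markers named here, Krt14 and Cdh11 differed most between the lines. The part of such marker differences in the line differences described below was not tested. The leukocyte gene Ptprc read 2.52 and 2.63, with 3 of 9 leukocyte markers above the limit in each line. These are bulk samples, in which fewer cells of a kind and less RNA per cell cannot be told apart. Replicate 3 of the 3 vector groups at 2 h stood apart from the other vector 2 h arrays on the second principal component, at -2.4 to 1.8 against -19.6 to -16.9. On 4 arrays the difference between the 3′ and 5′ Gapdh probe sets was raised, at 0.309 to 1.062 against -0.09 to 0.173 on the others; 3 of the 4 were shRNA arrays and the fourth was untreated vector replicate 3 at 2 h.

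Untreated AnxA2 shRNA cells held more Aen, Phlda3, Bbc3 and Ei24 RNA and far less Pawr RNA than vector cells. Over the untreated 2 h and 24 h arrays (6 arrays a line), 4 of the 7 tested genes were called higher and 1 lower, beside 24.1% of all tested genes called higher and 24.1% called lower. The median difference (shRNA minus vector, log2) was 0.43 over the 7 genes and 0.02 over all tested genes. Fas and Tnfrsf10b, the death receptors, were not called, with differences of 0.04 (95% interval -0.22 to 0.29) and -0.09 (-0.34 to 0.15).

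Aen encodes a nuclease that p53 induces and that helps to break down DNA in dying cells; the gene spans chr7:78895927-78911209 (RefSeq, GRCm38.p6, as for the genes below). Untreated vector cells read 8.81, 8.80 and 8.97 at 2 h and 8.29, 8.44 and 8.34 at 24 h (log2 RMA signal of replicates 1 to 3, here and below). Untreated shRNA cells read 9.32, 9.51 and 9.30 at 2 h and 9.08, 9.21 and 9.03 at 24 h. Every shRNA array was above every vector array, although both lines were lower at 24 h than at 2 h. The difference was 0.63 ± 0.06 on the log2 scale (SE), 1.55-fold with a 95% interval of 1.43 to 1.68, and the limma adjusted p was 5.10e-12. The other probe sets of Aen gave 0.46 (adjusted p 0.00953) and 0.81 (adjusted p 1.63e-06).

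Phlda3 encodes a small pleckstrin homology domain protein that competes with AKT for membrane lipids and so restrains survival signalling; the gene spans chr1:135766085-135769134. Untreated vector cells read 8.70, 8.82 and 9.07 at 2 h and 8.96, 8.91 and 8.90 at 24 h. Untreated shRNA cells read 9.34, 9.52 and 9.43 at 2 h and 9.40, 9.60 and 9.35 at 24 h. The lines did not overlap, and within each line the time points overlapped. The difference was 0.55 ± 0.07 (1.46-fold, adjusted p 3.04e-08).

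Bbc3 encodes a BH3-only protein that binds and neutralises the survival members of the BCL-2 family; the gene spans chr7:16308398-16318334. Vector cells read 4.77, 4.77 and 4.44 at 2 h and 4.91, 4.93 and 4.83 at 24 h. In shRNA cells it read 4.84, 4.82 and 4.92 at 2 h and 6.02, 5.65 and 5.52 at 24 h. The lines were close together at 2 h and far apart at 24 h. Over both time points the difference was 0.52 ± 0.08 (1.44-fold, adjusted p 1.66e-06), but at 2 h alone it was 0.20 (adjusted p 0.188) and at 24 h 0.84 (adjusted p 2.57e-07). At 2 h 33.8% and at 24 h 39.3% of tested genes were called between the untreated lines. The change of the line difference from 2 to 24 h was 0.64 ± 0.17 (95% interval 0.30 to 0.97, adjusted p 0.0143), in a test that called 5.69% of genes. Without the highest array, untreated shRNA replicate 1 at 24 h, it was 0.49 with an adjusted p of 0.0812. In a fit of the compared groups alone its adjusted p was 0.0849.

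Ei24 encodes a membrane protein of the endoplasmic reticulum that was found as a p53-induced gene and is also needed for autophagy; the gene spans chr9:36779153-36797334. Vector cells read 8.33, 8.49 and 8.02 at 2 h and 8.28, 8.17 and 8.41 at 24 h. In shRNA cells it read 8.48, 8.96 and 9.02 at 2 h and 8.60, 8.78 and 8.45 at 24 h. The lowest shRNA arrays met the highest vector array, and the other shRNA arrays were higher. The difference was 0.43 ± 0.13 (1.35-fold, adjusted p 0.00566).

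Pawr encodes a leucine zipper protein that promotes apoptosis, in part by restraining NF-κB and atypical PKC signalling; the gene spans chr10:108332189-108414391. Vector cells read 8.97, 8.80 and 9.57 at 2 h and 8.97, 9.07 and 8.94 at 24 h. In shRNA cells it read 5.15, 5.24 and 5.03 at 2 h and 5.23, 5.04 and 5.21 at 24 h. Its shRNA arrays were far below its vector arrays at both times, in a range of log2 signal where the low-signal limit of 4.35 is near. The shRNA level was 6.69% of the vector level, 15.0-fold lower with a 95% interval of 12.9 to 17.4 (adjusted p 1.45e-27). The difference was larger than that of the targeted Anxa2, -3.90 ± 0.11 against -1.55 ± 0.06, a comparison of sizes that was not tested.

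Fas encodes the CD95 death receptor, which recruits caspase-8 through Fadd; the gene spans chr19:34290647-34327775. Vector cells read 4.75, 4.71 and 5.02 at 2 h and 6.41, 5.81 and 6.09 at 24 h. In shRNA cells it read 5.22, 5.50 and 5.48 at 2 h and 6.00, 5.52 and 5.29 at 24 h. The order of the lines turned between the time points: all shRNA arrays were above the vector arrays at 2 h, and at 24 h 2 of the 3 shRNA arrays were below all of them. The line difference was 0.57 ± 0.18 at 2 h (adjusted p 0.0112) and -0.50 ± 0.18 at 24 h (adjusted p 0.0232). Its change, -1.07 ± 0.25 (95% interval -1.58 to -0.56), had an adjusted p of 0.00648. The call at 24 h rested on single arrays: the adjusted p was 0.0728 and 0.179 without shRNA replicate 2 or 3, and 0.176 and 0.0513 without vector replicate 1 or 3.

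**Figure D1:**
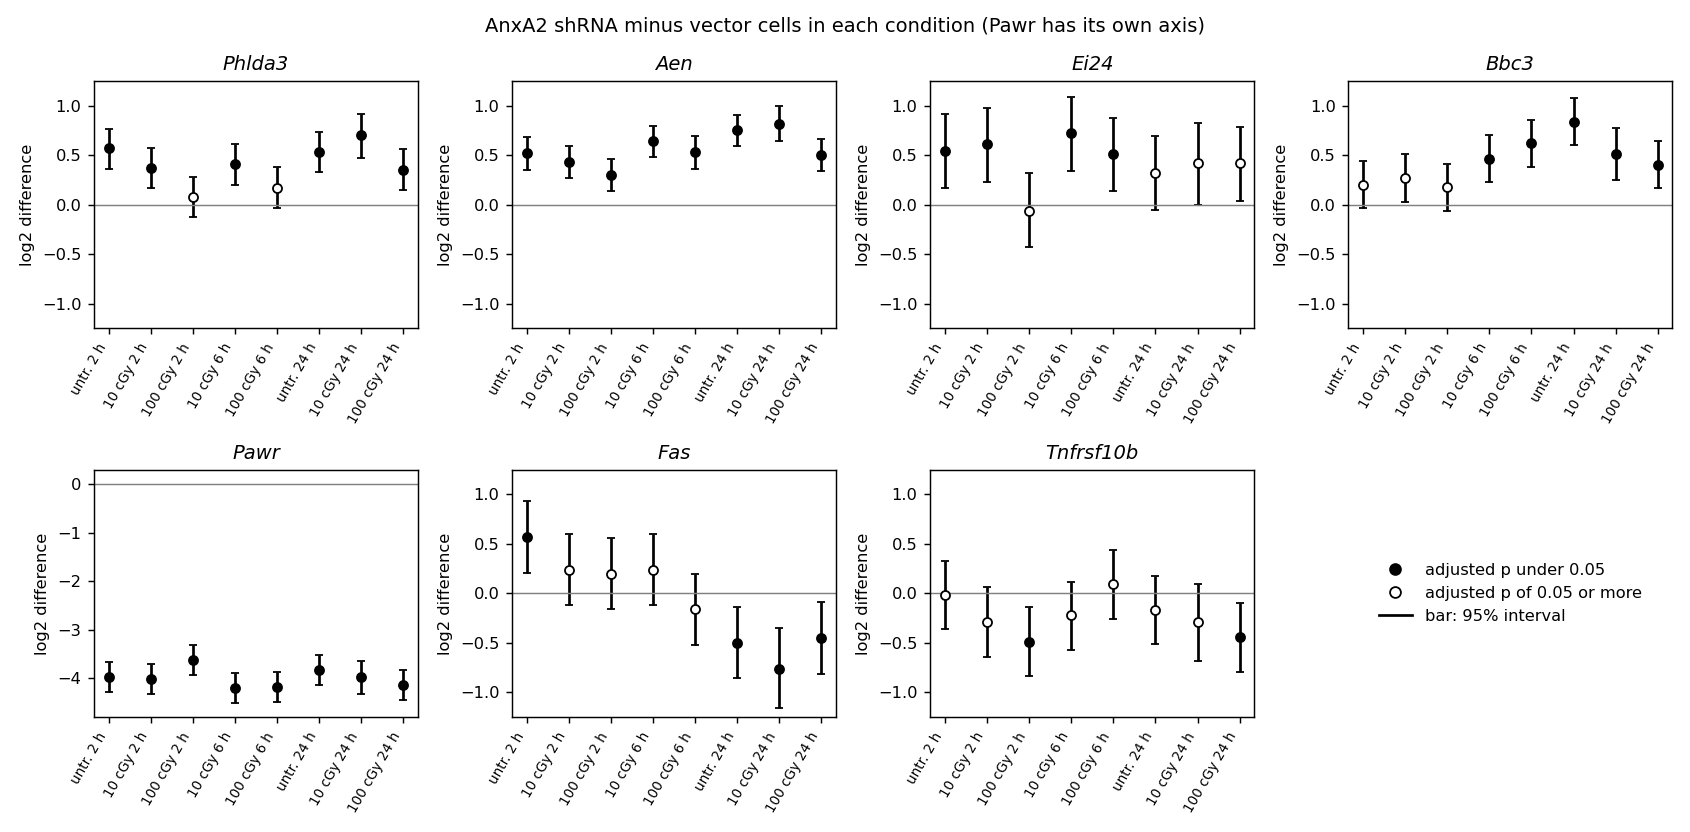
Difference between AnxA2 shRNA and vector cells (log2 RMA signal, shRNA minus vector) for each tested gene in each of the 8 conditions, with 95% intervals; filled points had an adjusted p under 0.05, and Pawr has an axis of its own. Aen lies above 0 in all 8 conditions and Pawr between -4.20 and -3.62, while Phlda3 falls to 0.08 at 100 cGy and 2 h.

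The same line comparison in each irradiated group showed which of these differences were present after X-rays. This comparison was added after the data had been seen. The share of tested genes called was 33.4% at 10 cGy and 2 h, 35.7% at 10 cGy and 6 h, 33.7% at 10 cGy and 24 h, 40.0% at 100 cGy and 2 h, 37.2% at 100 cGy and 6 h and 38.3% at 100 cGy and 24 h. With the untreated groups, Pawr was called in 8 of 8 conditions, with differences of -4.20 to -3.62, and Aen in 8 of 8, with differences of 0.30 to 0.82. The next brightest Aen probe set gave smaller differences in places, 0.03 at 100 cGy and 2 h (adjusted p 0.929) and 0.09 at 100 cGy and 6 h (adjusted p 0.791). Without X-rays it gave 0.46 at 2 h and 0.46 at 24 h, with adjusted p values of 0.0908 and 0.0806.

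Phlda3 was called in 6 of 8 conditions, with more RNA in shRNA cells. The exceptions were 100 cGy at 2 h, with a difference of 0.08 (adjusted p 0.585), and 100 cGy at 6 h, with 0.17 (adjusted p 0.181). With array weights the first of these was 0.20 and called (adjusted p 0.0334). Bbc3 was called in 5 of 8 conditions, all of them at 6 or 24 h, and Ei24 in 4 of 8, each time with more RNA in shRNA cells. Fas was called in 4 of 8 conditions, above vector cells in the untreated 2 h group and below them in all 3 groups at 24 h, among them 10 cGy (-0.76, adjusted p 0.0026). Several of these calls rested on single arrays: leaving out 1 array ended that of Ei24 in untreated cells at 2 h (adjusted p 0.085 and 0.106 without shRNA replicate 2 or 3, 0.125 without vector replicate 3), at 100 cGy and 6 h (adjusted p 0.0522 to 0.113) and at 10 cGy and 2 h (0.0696 and 0.108), that of Fas at 100 cGy and 24 h (0.0667 to 0.164) and that of Phlda3 at 10 cGy and 2 h (0.0607). Other settings ended some of them too. The untreated 2 h call of Ei24 had an adjusted p of 0.057 without the 3 vector arrays that stood apart, and that of Fas at 100 cGy and 24 h had 0.0611 with arrays centred on the median and 0.0876 after another quantile normalization. In a fit of the compared groups alone the adjusted p was 0.0601 for Ei24 in untreated cells at 2 h, 0.0982 for Ei24 and 0.0713 for Phlda3 at 10 cGy and 2 h, and 0.0792 for Aen at 100 cGy and 2 h.

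Tnfrsf10b, the mouse receptor of the death ligand TRAIL at chr14:69767472-69784411, was called in 2 of 8 conditions, with less RNA in shRNA cells: 100 cGy at 2 h (-0.49, adjusted p 0.0219) and 100 cGy at 24 h (-0.44, adjusted p 0.0379). At 2 h vector cells read 4.96, 4.96 and 5.13 and shRNA cells 4.52, 4.39 and 4.69, with no overlap. At 24 h they read 5.51, 5.29 and 5.05 against 4.64, 4.86 and 5.01. Both calls were lost in several settings. Leaving out the 3 vector arrays that stood apart gave an adjusted p of 0.0774 at 2 h, and at 24 h it was 0.0668 with arrays centred on the median and 0.058 after another quantile normalization. With single arrays left out, the adjusted p for Tnfrsf10b at 2 h was 0.0519, 0.0995 and 0.0826 without shRNA replicate 1 or 2 or vector replicate 3, and at 24 h it was 0.173 and 0.0683 without shRNA replicate 1 or 2 and 0.196 and 0.0795 without vector replicate 1 or 2. Its other probe set gave -0.04 at 2 h and -0.45 at 24 h, neither called.

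**Figure D2:**
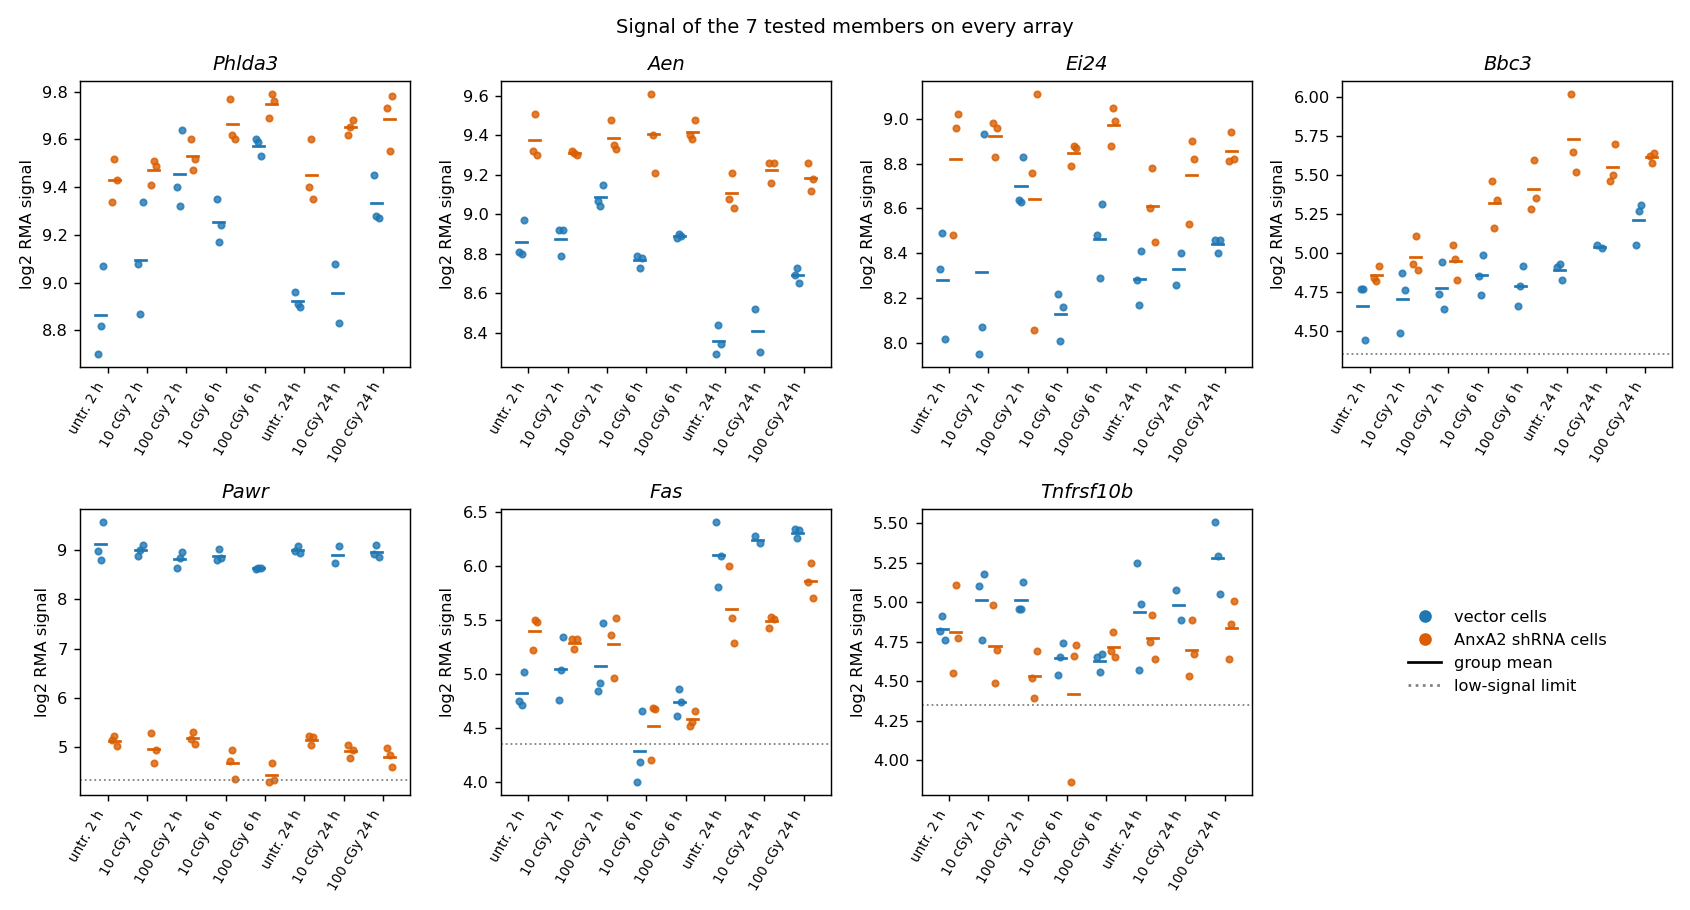
Log2 RMA signal of each array for the 7 tested genes by dose and time, vector in blue and AnxA2 shRNA in orange, with lines at the group means and a dotted line at the low-signal limit of 4.35. Phlda3 in vector cells lies near the shRNA level at 100 cGy and 2 or 6 h but not at 10 cGy and 24 h, where the lines differ by 0.70, Fas dips in both lines at 6 h, and Pawr in shRNA cells stays near the limit.

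The upstream sequence is printed for 3 of the genes that were higher in untreated shRNA cells, Phlda3, Aen and Ei24. Phlda3 and Aen were also called after X-rays. Bbc3, which was higher in untreated shRNA cells too, is not printed. The sequences are the 250 bases before an annotated start, from RefSeq on GRCm38.p6, 5′ to 3′ on the strand of the gene. Capitals mark a match to the p53 decamer, the 10-letter unit that occurs as a pair in p53 response elements, searched on both strands as the single motif. No source used here names the build behind the array annotation. The windows are chr1:135765835-135766084 (plus strand) for Phlda3, chr7:78895808-78896057 (plus strand, the second of its starts) for Aen, and chr9:36797335-36797584 (minus strand) for Ei24.
Phlda3: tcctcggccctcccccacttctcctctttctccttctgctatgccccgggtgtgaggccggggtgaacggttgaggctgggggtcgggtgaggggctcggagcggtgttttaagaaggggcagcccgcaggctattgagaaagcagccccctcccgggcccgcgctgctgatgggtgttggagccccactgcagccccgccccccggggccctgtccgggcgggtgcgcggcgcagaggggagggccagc
Aen: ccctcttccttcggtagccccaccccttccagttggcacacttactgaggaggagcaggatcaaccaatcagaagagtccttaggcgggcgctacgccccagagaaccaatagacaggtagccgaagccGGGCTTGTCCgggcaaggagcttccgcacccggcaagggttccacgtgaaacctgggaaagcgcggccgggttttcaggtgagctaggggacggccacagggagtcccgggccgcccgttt
Ei24: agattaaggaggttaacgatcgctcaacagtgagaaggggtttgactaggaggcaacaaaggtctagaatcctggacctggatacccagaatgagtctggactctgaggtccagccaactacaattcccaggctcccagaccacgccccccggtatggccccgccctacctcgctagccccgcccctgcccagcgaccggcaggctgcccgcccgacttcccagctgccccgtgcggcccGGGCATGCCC
The Aen match lies 121 to 112 bases before the start and the Ei24 match 10 to 1 bases before it, and the Phlda3 window has no match. Windows of Aen and Ei24 were printed only if they held a match, so the printed windows do not show how common matches are. The window of the other Aen start, chr7:78895677-78895926, held none. RefSeq windows were counted for 7 of the 10 genes, and 3 of them held a match (Aen, Ei24 and Bax). Bbc3, Fas, Pawr and Phlda3 held none. Perp, Pmaip1 and Tnfrsf10b were not counted, which does not mean that they lack a window or a match. Of all genes with a window, 8.20% held a match. The 7 genes are a selection, so their share is not comparable with this one. A match is a string of letters and not a measured binding site, and a window without one says nothing of p53 elsewhere at the gene.

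Vector cells raised Phlda3 2 h after 100 cGy, and it was the single gene of the 7 to be called at that dose and time. All 4 genes called in that comparison made up 0.0461% of tested genes, with 987 at an unadjusted p under 0.05; for the 7 genes this unadjusted number was 3. The irradiated vector arrays read 9.40, 9.32 and 9.64, all above the untreated 2 h vector arrays given above. The change was 0.59 ± 0.10 (95% interval 0.39 to 0.79), 1.51-fold, with an adjusted p of 0.00233. It was 0.60 (adjusted p 7.97e-04) without the 3 vector arrays that stood apart. Without untreated vector replicate 1 at 2 h it was 0.51 with an adjusted p of 0.0715. When the fit held these groups alone the adjusted p was 0.617.

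In shRNA cells at the same dose and time none of the 7 genes was called, beside 0.0231% of tested genes, and 0 of the 7 had an unadjusted p under 0.05. Phlda3 read 9.60, 9.47 and 9.52 there, overlapping the untreated shRNA arrays, and its change was 0.10 (95% interval -0.10 to 0.31). Aen changed by 0.23 in vector cells (0.07 to 0.39, adjusted p 0.319) and by 0.01 in shRNA cells (-0.15 to 0.17). Ei24 changed by 0.42 in vector cells (0.05 to 0.80, adjusted p 0.395), with arrays at 8.64, 8.63 and 8.83, and by -0.18 in shRNA cells, where replicate 2 read 8.06 and the others 8.76 and 9.11. That shRNA replicate is one of the arrays with a raised Gapdh difference, whose part in the value was not tested. The median over the 7 genes was 0.23 in vector and 0.01 in shRNA cells, against 0.00 and -0.02 over all tested genes.

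At 6 h after 100 cGy, Phlda3 was higher and Fas lower in both lines than in untreated cells averaged over 2 and 24 h. These groups were set against both untreated time points of their line, averaged, because no untreated 6 h group is among the samples used here. Dose and time in culture therefore cannot be told apart at 6 h for any gene, whichever untreated time point is the reference. Genes with different values at 2 and 24 h also depend on the choice of reference. Many genes were called, 18.4% in vector cells (7.0% higher and 11.4% lower) and 15.0% in shRNA cells (5.5% higher and 9.54% lower). Of the 7 genes, 2 rose and 2 fell in vector cells, and 1 rose and 2 fell in shRNA cells.

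Phlda3 in vector cells at 6 h read 9.60, 9.59 and 9.53 after 100 cGy, above all untreated vector arrays. Its change was 0.68 ± 0.09 (95% interval 0.51 to 0.86; 1.60-fold, adjusted p 2.17e-07). In shRNA cells it read 9.69, 9.79 and 9.76 and its change was 0.31 ± 0.09 (adjusted p 0.012). Both values held with either untreated time point as the reference, 0.71 and 0.65 in vector cells and 0.32 and 0.30 in shRNA cells. The shRNA call was lost without its replicate 2 (adjusted p 0.0685) or replicate 3 (0.0526).

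Fas read 4.61, 4.86 and 4.74 in vector cells and 4.52, 4.56 and 4.66 in shRNA cells 6 h after 100 cGy. It fell by 0.73 in vector cells (SE 0.15, adjusted p 5.97e-04) and by 0.92 in shRNA cells (SE 0.15, adjusted p 3.69e-05). Every shRNA array was below all untreated shRNA arrays, but the vector arrays overlapped the untreated 2 h arrays. Against the untreated 2 h cells alone the vector change was -0.09 (adjusted p 0.802), and against the 24 h cells alone it was -1.37 (adjusted p 1.41e-07). The shRNA change kept its call with either reference, at -0.82 and -1.03.

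Aen showed the same dependence: in vector cells it read 8.88, 8.90 and 8.89, a change of 0.28 ± 0.07 (adjusted p 0.00303) from the mean of both references. From the 2 h cells alone the change was 0.03 (adjusted p 0.863) and from the 24 h cells alone 0.53. In shRNA cells Aen changed by 0.17 (adjusted p 0.0873).

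Pawr was lower at 6 h after 100 cGy. In shRNA cells it read 4.30, 4.69 and 4.34, below every untreated shRNA array, and fell by 0.71 (SE 0.13, adjusted p 1.79e-04), with -0.70 and -0.72 against either reference. These signals lie at the low-signal limit. In vector cells it read 8.62, 8.64 and 8.64 and fell by 0.42 (SE 0.13, adjusted p 0.0198). The vector call was lost when any of its own 3 arrays was left out (adjusted p 0.0598 to 0.072) and without untreated vector replicate 3 at 2 h (0.0783). Against the untreated 24 h cells alone the vector change was -0.36 (adjusted p 0.0732), and against the 2 h cells alone -0.48 (adjusted p 0.0407). Without the 3 vector arrays that stood apart its adjusted p was 0.069, and in a fit of the compared groups alone 0.077.

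Bbc3 at 6 h changed by 0.02 in vector and 0.11 in shRNA cells after 100 cGy, with no call. In shRNA cells its 6 h arrays, 5.28, 5.60 and 5.35, were above all untreated 2 h arrays, and only the highest of them reached the range of the untreated 24 h arrays. Against the 2 h cells alone the change was 0.55 (adjusted p 0.00187) and against the 24 h cells alone -0.32 (adjusted p 0.0425), so its direction was set by the reference. Ei24 and Tnfrsf10b were not called at 6 h in either line, with changes of 0.18 and -0.26 in vector and 0.26 and -0.07 in shRNA cells.

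**Figure D3:**
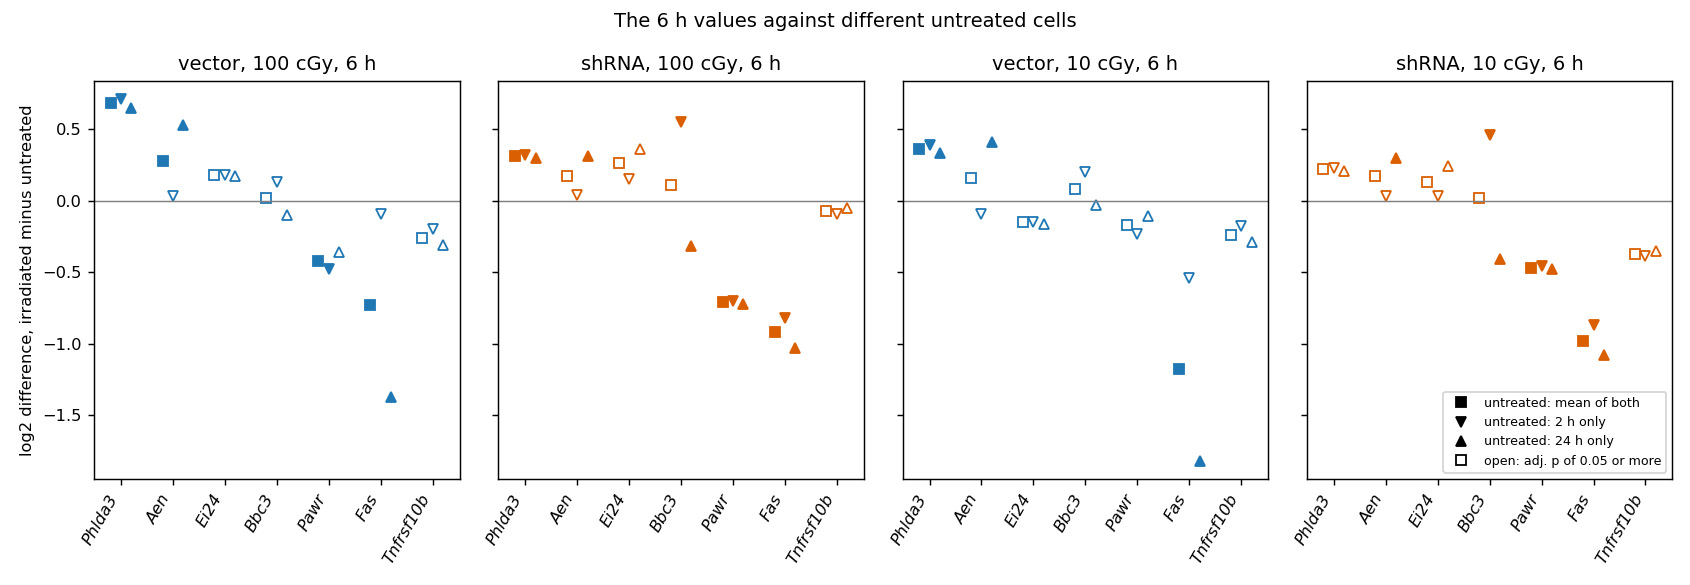
Change at 6 h (log2, irradiated minus untreated) for each tested gene and line, computed against the mean of both untreated time points, the 2 h cells alone or the 24 h cells alone; open points were not called. Phlda3 hardly moves with the reference, whereas Fas in vector cells after 100 cGy goes from -0.09 to -1.37 and Bbc3 in shRNA cells changes sign.

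After 24 h none of the 7 genes was called for 100 cGy in either line, beside 0.0922% of tested genes in vector and 0.161% in shRNA cells; 3 and 2 of the 7 had an unadjusted p under 0.05. The vector arrays of Phlda3, 9.45, 9.28 and 9.27, were all above the untreated 24 h arrays, and the change was 0.41 ± 0.10 (95% interval 0.21 to 0.61, adjusted p 0.148). With the replicate number as a block, which the data allow here since same-numbered arrays deviated together, the adjusted p was 0.0331. The other vector changes at 24 h included 0.33 for Aen (0.17 to 0.49, arrays 8.69, 8.73 and 8.65, above all untreated 24 h arrays) and 0.32 for Bbc3 (0.08 to 0.56, arrays 5.05, 5.27 and 5.31). In shRNA cells these genes changed by 0.23, 0.08 and -0.12. The median over the 7 genes was 0.32 in vector and 0.08 in shRNA cells, against 0.02 and -0.02 over all tested genes.

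After 10 cGy, calls among these genes were made at 6 h, against the averaged untreated time points, so that dose and time in culture cannot be told apart there. At 2 h none of the 7 was called, beside 0.0% of tested genes in vector and 0.0115% in shRNA cells, and at 24 h none, beside 0.0115% and 0.0%. At 2 h 1 of the 7 in vector cells (Phlda3, 0.24, 95% interval 0.03 to 0.44) and 0 in shRNA cells had an unadjusted p under 0.05, and at 24 h 0 and 0 did. At 6 h, where 17.1% of genes in vector cells (6.58% higher, 10.5% lower) and 17.5% in shRNA cells (6.95% higher, 10.6% lower) were called, 1 of the 7 rose and 1 fell in vector cells and 2 fell in shRNA cells.

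Phlda3 in vector cells read 9.35, 9.17 and 9.24 6 h after 10 cGy and rose by 0.36 (SE 0.09, adjusted p 0.00228). In shRNA cells, at 9.77, 9.62 and 9.60, it changed by 0.22 (adjusted p 0.0704). The vector arrays were above all untreated vector arrays, and the lowest shRNA array was level with the highest untreated shRNA array to 2 decimals.

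Fas read 4.0, 4.19 and 4.66 in vector and 4.20, 4.69 and 4.68 in shRNA cells 6 h after 10 cGy. It fell by 1.18 in vector (SE 0.15, adjusted p 3.80e-07) and by 0.98 in shRNA cells (SE 0.15, adjusted p 1.44e-05). Against the untreated 2 h cells alone the vector change was -0.54 (adjusted p 0.0624), and against the 24 h cells alone -1.82. Several of these arrays were under the low-signal limit. Pawr fell by 0.47 in shRNA cells (SE 0.13, adjusted p 0.00926), at 4.72, 4.95 and 4.36; without replicate 3 the change was -0.31 (adjusted p 0.151). In vector cells Pawr changed by -0.17 (adjusted p 0.448).

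**Figure D4:**
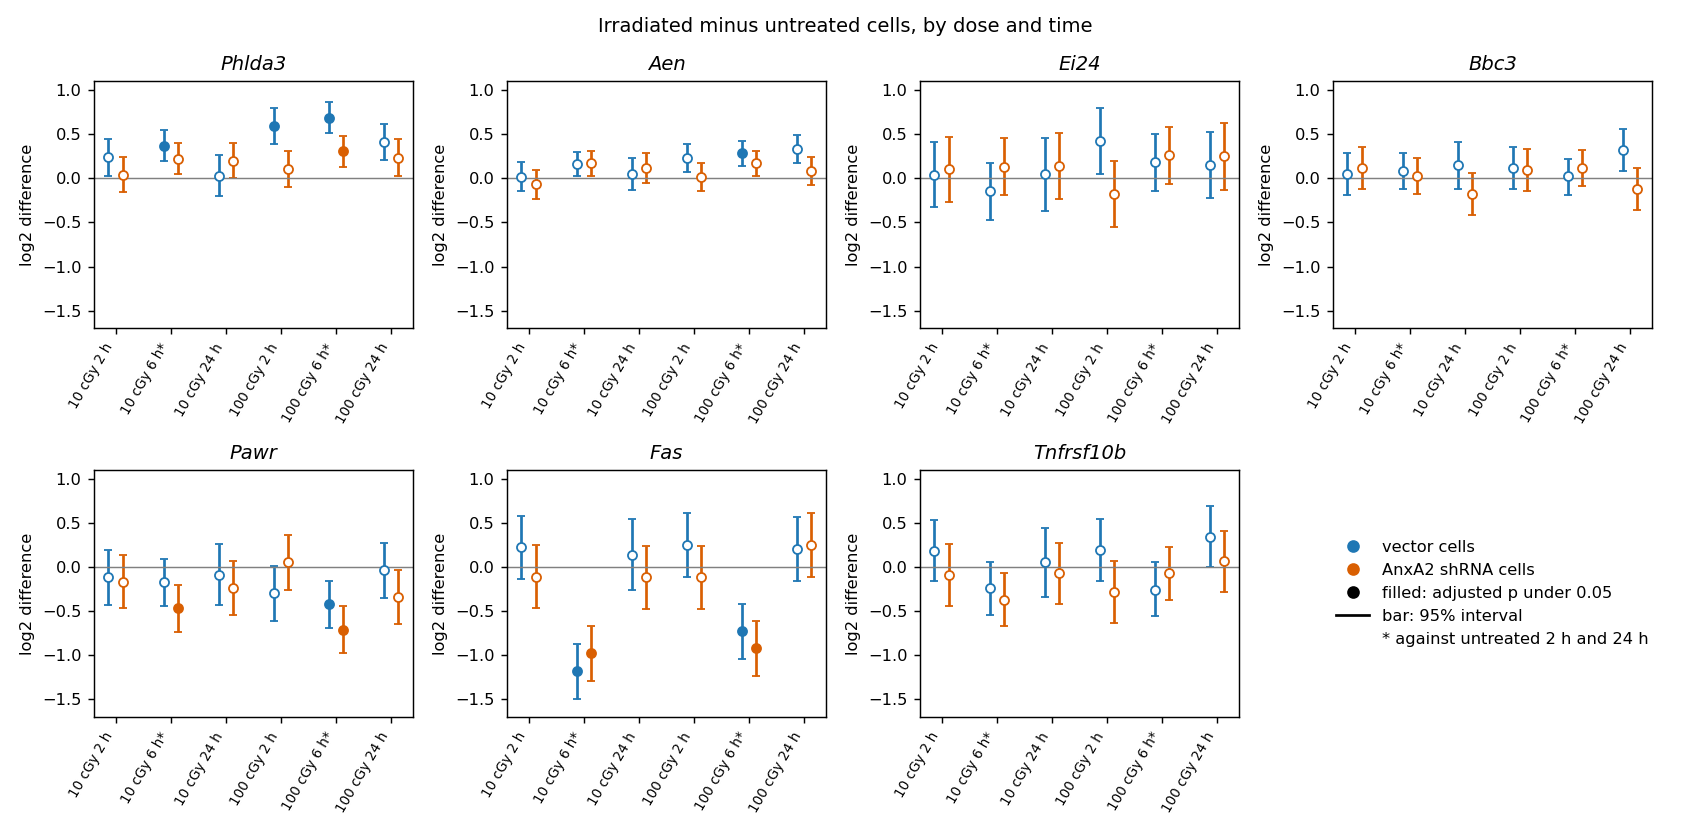
Change after irradiation (log2, irradiated minus untreated cells of the same line) for each tested gene by dose and time, with 95% intervals, vector in blue and AnxA2 shRNA in orange; filled points had an adjusted p under 0.05, and a star marks 6 h changes set against untreated 2 h and 24 h cells. Phlda3 after 100 cGy is higher in vector cells, at 0.59, 0.68 and 0.41, than in shRNA cells, at 0.10, 0.31 and 0.23, and the difference was not called.

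Whether the response differed between the lines was tested directly as an interaction. None of the 7 genes was called at either dose or any time, where 0.0115% of tested genes were called at 100 cGy and 2 h, 1.04% at 6 h and 0.0807% at 24 h, and 0.0115%, 1.64% and 0.0115% at 10 cGy. At 100 cGy 2, 1 and 2 of the 7 genes had an unadjusted p under 0.05 at 2, 6 and 24 h, and at 10 cGy 0 at each time. The response of Phlda3 to 100 cGy was 0.49 smaller in shRNA cells at 2 h by the point estimate (-0.49 ± 0.14, 95% interval -0.77 to -0.20, adjusted p 0.345) and at 6 h it differed by -0.37 ± 0.12 (-0.62 to -0.13, adjusted p 0.175). Both became calls with array weights, at -0.54 (adjusted p 0.00474) and -0.46 (adjusted p 0.00157). The 6 h difference also did so without the 3 vector arrays that stood apart, at -0.43 (adjusted p 0.0124). The share of all tested genes called was not counted in these settings, so these calls cannot be set against it.

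For Bbc3 the difference in response to 100 cGy at 24 h was -0.44 (95% interval -0.77 to -0.10, adjusted p 0.997), and for Ei24 at 2 h it was -0.60 (-1.13 to -0.07, adjusted p 0.36). The median over the 7 genes was -0.37 at 2 h, -0.11 at 6 h and -0.25 at 24 h. The p53 target Cdkn1a, a cell cycle inhibitor and not one of the 10 genes, was called in this test at 24 h, with -0.77 ± 0.16 (adjusted p 0.0303). The other reference target, Mdm2, averaged 8.71 in untreated vector cells at 24 h and 8.95 after 100 cGy. In shRNA cells Mdm2 averaged 9.37 and 9.45.

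No gene of the 7 was called between 100 and 10 cGy within a line. That comparison called 0.0346% of tested genes in vector and 0.0231% in shRNA cells at 2 h, 0.0922% and 0.0% at 6 h and 0.0% and 0.161% at 24 h. In vector cells 3, 2 and 2 of the 7 genes had an unadjusted p under 0.05 at 2, 6 and 24 h, and in shRNA cells 0, 0 and 1. Phlda3 in vector cells was 0.36 (adjusted p 0.882), 0.32 (0.76) and 0.38 (1.0) higher after 100 than after 10 cGy at 2, 6 and 24 h, without overlap of the arrays at 6 and 24 h. The 2 h value was 0.48 with an adjusted p of 0.0262 without vector replicate 3 at 10 cGy, 1 of the arrays that stood apart. In shRNA cells the same differences of Phlda3 were 0.06, 0.08 and 0.03.

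In untreated cells, 1 of the 7 genes was called higher and 1 lower at 24 h than at 2 h in each line. This comparison called 25.9% of tested genes in vector and 19.2% in shRNA cells. Fas rose by 1.28 from 2 to 24 h in vector cells (SE 0.18, 2.42-fold, adjusted p 7.36e-07) and changed by 0.21 in shRNA cells (adjusted p 0.471). Bbc3 rose by 0.87 in shRNA cells (SE 0.12, 1.83-fold, adjusted p 7.81e-07) and changed by 0.23 in vector cells (adjusted p 0.147). Aen fell in both lines, by 0.50 in vector (adjusted p 7.62e-06) and by 0.27 in shRNA cells (adjusted p 0.0144). The shRNA call of Aen was lost without untreated shRNA replicate 2 at 2 h (adjusted p 0.128) or replicate 1 or 3 at 24 h (0.0505 and 0.0831). In a fit of the compared groups alone its adjusted p was 0.0891. The other Aen probe sets gave -0.24 (adjusted p 0.453) and -0.40 (adjusted p 0.106) in vector cells. In shRNA cells they gave -0.24 (adjusted p 0.508) and -0.14 (adjusted p 0.694).

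Across the 8 groups of a line, group means of Fas spanned 2.03 log2 units in vector and 1.34 in shRNA cells, from the 10 cGy group at 6 h to the 100 cGy group at 24 h in both lines. The spread of Phlda3 was 0.71 in vector and 0.32 in shRNA cells, and its highest mean in both lines was at 100 cGy and 6 h, 9.57 and 9.75. For Aen it was 0.73 and 0.31, with the lowest means, 8.36 and 9.11, in untreated cells at 24 h. For Bbc3 it was 0.55 and 0.87, for Ei24 0.57 and 0.36, for Tnfrsf10b 0.65 and 0.42 and for Pawr 0.48 and 0.75. The median SD within a group was 0.06 to 0.23 over the 7 genes and both lines, so neighbours in these orders often differ by less than the spread between arrays. Perp, a membrane protein of desmosomes that p53 induces, read 2.43 to 3.07 over all arrays, and Pmaip1 read 2.14 to 2.68. Neither was called in any comparison when all genes were tested.

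For each tested gene called in at least 1 response to radiation, the genes with the most similar pattern were found by Pearson correlation over the 16 group means, each centred on the mean of its line. The values describe these groups, which share arrays, and carry no test. Aen was closest to Cdkn1a (0.96), Dyrk3 (0.93) and Zfpm1 (0.91). Phlda3 was closest to Dgcr8, Crip2 and Trp53inp1 (0.80 each), of which Trp53inp1 is a p53-induced gene. Fas was closest to Tmem175, Vps28 and Rars2 (0.98 each) and Pawr to Cdt1 (0.93), Acp2 (0.91) and Acad9 (0.90). Among the 7 genes the correlations of largest size were 0.73 for Fas with Tnfrsf10b and -0.72 for Fas with Aen.

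Other genes of the p53 and apoptosis pathways give the setting for these values. Their counts in untreated cells stand beside 24.1% of all tested genes called higher and 24.1% called lower in shRNA cells. In untreated cells, 9 of 33 tested further p53 targets were called higher and 6 lower in shRNA cells (median 0.06), among them Slc19a2 (0.48), Epha2 (0.46) and Siva1 (-0.51). Of 8 tested p53 regulators, 2 were higher and 2 lower (median -0.10), with Hipk2, a p53 kinase, at 1.12 and the p53 inhibitor Mdm4 at -0.37. Of 13 other BCL-2 family genes, 7 were higher and 2 lower (median 0.22), with Bok at 0.58 and the BH3-only gene Bcl2l11 (Bim) at -1.29. None of 14 apoptosome and caspase genes was higher and 7 were lower (median -0.33), and the largest of the 3 named was the inhibitor of apoptosis Birc3 (-1.55), beside Endog (-1.17) and Xiap (-0.62). Of 10 death receptor pathway genes, 5 were higher and 3 lower (median 0.23), with the caspase-8 inhibitor Cflar at 0.70 and the adaptor Traf2 at -0.92.

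At 2 h after 100 cGy the further p53 targets were the single list with calls: 3 of 33 rose in vector cells, Mdm2 (0.88), the thiamine transporter Slc19a2 (0.70) and Cdkn1a (0.61), and 2 rose in shRNA cells, Slc19a2 (0.67) and Mdm2 (0.63). Of all tested genes, 0.0461% were called there in vector and 0.0231% in shRNA cells. At 6 h after 100 cGy, 7 of 33 rose and 5 fell in vector cells, and 6 rose and 4 fell in shRNA cells. Of all tested genes, 7.0% rose and 11.4% fell there in vector cells, and 5.5% rose and 9.54% fell in shRNA cells. Of the BCL-2 family genes, 1 rose (Bok, 0.43) and 1 fell (Bid, -0.61) in vector cells, and 3 rose and 1 fell in shRNA cells. Of the death receptor genes, 1 rose (Cflar, 0.42) and 2 fell in vector cells, among them Fadd (-0.47), and 2 fell in shRNA cells, Tradd (-0.30) and Fadd (-0.33). At 24 h the calls in these lists were 2 further p53 targets in vector cells after 100 cGy, with Cdkn1a at 0.82, beside 0.0922% of all tested genes.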

How the data were processed

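The 47 arrays were used as log2 values that the authors deposited; per the submitters' processing notes they were summarised by RMA, of unstated version. RMA corrects background, makes the value distributions of all arrays equal and gives 1 value per probe set, which can hide a shift shared by most genes. Depth does not apply to arrays, and the number of arrays per group limits the precision. Groups came from the labels. Of 22690 probe sets, 64 were controls, 20380 had 1 gene symbol, 691 several and 1555 none; those with several or none were left out. RefSeq's GRCm38.p6 gene table held the identifiers of 20351, and 0 symbols had to be changed. The brightest probe set stood for each of 12393 genes, of which 4956 had several, and the dimmest 30% of genes were left out. No array was identical to another (0), and 0 value columns were unused.

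The means of 16 groups were fitted to all 47 arrays with limma 3.58.1 in R 4.3.3 (31 residual and 5.68 prior degrees of freedom). P values are two-sided and adjusted by Benjamini-Hochberg over all 8675 tested genes of a comparison, with a threshold of 0.05, and called means under it. Intervals are 95% intervals from this fit. The 10 genes and the other gene lists were chosen with earlier results of these data known. All 10 genes are named, Cdkn1a and Mdm2 are reference targets, and from each other list up to 3 called genes with the smallest p are named. The line differences in irradiated groups and between the untreated time points were added later. On simulated data with 200 changed genes, a log2 change of 0.5 was recovered for 86% of genes in the untreated line comparison. For 100 cGy at 2 h in vector cells it was 62%, and for the interaction of 100 cGy at 24 h it was 31%. In the data these last comparisons called 4 and 7 genes. Fewer changed genes make the adjusted cut stricter, so the 62% and 31% may overstate what could be found. The simulated noise was independent between arrays, unlike that of same-numbered arrays in some comparisons.

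The labels number the replicates. For same-numbered arrays, the correlation of deviations from the group means was over 0.1 in every pair for 100 cGy in vector cells at 2 h (0.339 to 0.63) and 24 h (0.147 to 0.268), and for 100 against 10 cGy at 2 h in vector (0.476 to 0.72) and shRNA cells (0.355 to 0.479) and at 24 h in shRNA cells (0.19 to 0.559). Alternatives were other filters, scalings and variance models, array weights, fewer groups in the fit, other probe sets, a replicate block, other 6 h references and left-out arrays.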

Additional observations from a re-analysis of the deposited data

Results flagged for a closer look

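Results in which the lines differed by time drew attention in untreated cells. The difference of Bbc3 between shRNA and vector cells was 0.64 log2 units larger at 24 h than at 2 h, by the limma interaction (adjusted p 0.0143). This call was lost without untreated shRNA replicate 1 at 24 h (adjusted p 0.0812) and in a fit of the compared groups alone (0.0849). All 3 shRNA arrays at 24 h were above every other untreated array of Bbc3. The difference of Fas moved the other way, by -1.07 (adjusted p 0.00648). Fas was higher in shRNA cells at 2 h and in 2 of 3 arrays lower at 24 h, and its vector level rose with time while the shRNA change was not called. Both comparisons were chosen after the data had been seen.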

How the results depend on the processing

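Over all 39 comparisons there were 273 pairs of a tested gene and a comparison, of which 60 were called and 36 kept their call under all 15 other settings that applied and each left-out array. The 5 calls among the members in untreated cells, both times together, kept their direction and call in each setting that tested them. Bbc3 in shRNA cells at 6 h after 10 cGy took the opposite sign to its uncalled 0.02 and was called when set against untreated 24 h cells (-0.41); after 100 cGy it was -0.32 there against 0.11. This follows from the higher untreated level at 24 h.

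Counts of members called that moved by over 1.5 times follow, by setting. The share of all tested genes called was not counted in these settings, so the counts cannot be read as particular to these genes. In vector cells, array weights gave 2 at 100 cGy and 2 h, 2 at 100 cGy and 24 h and 4 at 10 cGy and 6 h. They gave 2 for the interactions and 3 for 100 against 10 cGy. Only the compared groups gave 0 at 100 cGy and 2 h in vector cells. The untreated 2 h reference gave 2 and 1 members for 100 and 10 cGy at 6 h in vector cells, and the 24 h reference 5 and 4 in shRNA cells. The stricter filter on low signal leaves Bbc3, Fas and Tnfrsf10b untested. It gave 1 member for 10 cGy at 6 h in each line and 2 for untreated 24 h against 2 h cells. Centring gave 4 members for 10 cGy at 6 h in shRNA cells. At 100 cGy and 24 h in vector cells, the replicate block gave 1 member (Phlda3), as did leaving out the 3 vector arrays that stood apart (Phlda3) and the 3 shRNA arrays with raised Gapdh differences (Aen). Leaving out those vector arrays gave 1 for the interactions. Where arrays were left out in turn, the members called numbered 0 to 1 in vector cells at 100 cGy and 2 h (0 without untreated vector replicate 1) and 0 to 1 for 100 against 10 cGy (1 without vector replicate 3 at 10 cGy and 2 h). Unless given above, the cause was not tested. The replicate block changed no other call.

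With 2 or 3 arrays a group, a change of 0.5 at 2 h or in an interaction would often be missed. Signals of Fas, Tnfrsf10b, Bbc3 and of Pawr in shRNA cells lie near the low-signal limit.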
